A study of Saccharomyces cerevisiae with 10 samples.

Results

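The combined loss of SET1 and SET5 in budding yeast was compared with the sum of the losses of each gene alone, transcript by transcript. For each feature the interaction value was the log2 level in set1∆ set5∆, minus that in set1∆, minus that in set5∆, plus that in the wild type, with each level taken as FPKM + 1 (FPKM are fragments scaled to transcript length and library size). A value of 0 means that the double deletion stood where the single deletions add up to on the log2 scale. A value of 1 means that it stood 2-fold above that sum, and a value of -1 that it stood 2-fold below. The comparison covers 6541 of the 6663 features in the table, those whose 5 strain values average 1 FPKM or more. The rule uses no outcome to choose them, but every value described below is the measure itself, with 1 value per strain and no replicate values, so no test was run and no p-value is given.

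RNA of whole cells was sequenced in 5 strains of the Saccharomyces cerevisiae laboratory strain BY4741, with 2 biological replicates per strain, 10 libraries in all, of which the table gives 1 combined value per strain. The strains were set1∆ set5∆, which lacks both genes, set1∆, which lacks SET1 only, set5∆, which lacks SET5 only, SET5 Y402A, which carries a substitution in Set5, and the unaltered BY4741 wild type. All of them were grown at 30 °C in the rich glucose medium YPD without treatment and were collected in mid-log phase. The 4 strains of the interaction account for 8 of the libraries. SET5 Y402A takes no part in the interaction value and is set beside it as a separate SET5 mutant.

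Set1 is the catalytic subunit of COMPASS, the complex that methylates lysine 4 of histone H3 in chromatin at transcribed genes. Set5 is a methyltransferase of lysines in the tail of histone H4. Both have been linked to the silencing of genes near chromosome ends and of retrotransposons. The comparison asks at which genes the loss of both goes with a level that the losses of each, added up, do not give.

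The strains matched their labels at the deleted genes. SET1 stood at 0.0324 FPKM in set1∆ set5∆, 0.0328 in set1∆, 24.2 in set5∆, 25.6 in SET5 Y402A and 24.3 in the wild type. SET5 stood at 0.0167 FPKM in set1∆ set5∆, 37.8 in set1∆, 0.0545 in set5∆, 41.8 in SET5 Y402A and 34.6 in the wild type. Both deletions were thus visible in the double deletion, and the substitution strain kept its SET5 transcript. The 6 genes specific to mating type a were between 65.4 and 103882 FPKM in every strain and the 4 specific to mating type alpha between 1.19 and 32.9, with none of either list at 0. LEU2 and MET17, which are deleted in BY4741, stayed at or below 0.707 FPKM, while HIS3, of which the BY4741 allele removes only a part, stood at 77.9 to 134 FPKM in the 4 strains. The columns summed to 2056298 FPKM in set1∆ set5∆, 2199480 in set1∆, 2426410 in set5∆ and 2368910 in the wild type, and the sequencing depth is unknown.

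Most transcripts of the double deletion stood close to the sum of the single deletions. Of the 6541 features, 5120 (78.3%) lay within 1.2-fold of the sum, and the median interaction value was -0.0014. Values above 0 were found in 3257 (49.8%) of them and values below 0 in 3284. At least 2-fold above the sum were 51 features (0.78%), and 80 (1.22%) were at least 2-fold below. Many of these 131 cannot be read as changes of a gene: 56 are shorter than 300 bp, 37 have no entry in the annotation used, 36 are listed at 0 in a strain of the comparison, 30 are under 10 FPKM in all 4 strains, and 19 are annotated as non-coding, with features falling under several of these. TEF1 and TEF2, the near-identical abundant genes of translation elongation factor 1A, are an instance: both are listed at 0 in set1∆ set5∆ but at 10494 and 10890 FPKM in set1∆, 11708 and 12354 in set5∆, and 12059 and 12637 in the wild type. An exact 0 in such a table can be a failed estimate, so no fold is given for them.

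The description below therefore rests on the 5191 protein-coding genes of at least 300 bp that had at least 10 FPKM in the highest of the 4 strains and were above 0 in all of them. Among these, 4398 (84.7%) lay within 1.2-fold of the sum and 98.0% within 1.5-fold. The departures were lopsided: 2 genes (0.0385%) stood at least 2-fold above the sum and 24 (0.462%) at least 2-fold below. At 1.5-fold the counts were 25 (0.482%) above and 81 (1.56%) below, 9 genes (0.173%) were at least 3-fold below, and none of the 5191 was 3-fold above. The genes nearest to the 2-fold mark were ENO1 at -1.01 just inside and PUN1 at -0.99 just outside on the low side, and FIT2 at 1.06 inside and YGR079W at 0.91 outside on the high side. Nearest to the mark of 1 FPKM on the mean were REC8, at 1.005 FPKM and inside, and YDL022C-A, at 0.992 FPKM and outside.

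**Figure D1:**
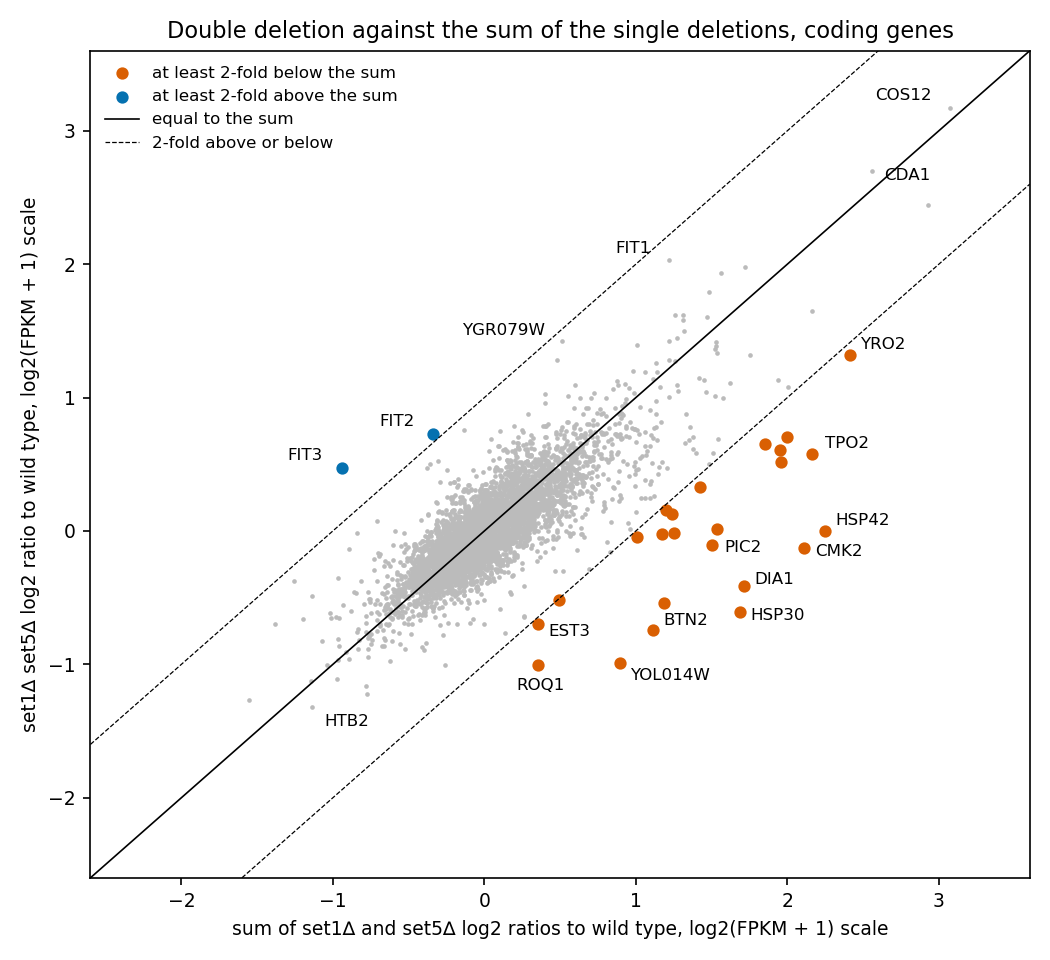
Each point is 1 of the coding genes compared, SET1 and SET5 left out because they lie off the axes. The horizontal axis is the sum of the set1∆ and set5∆ log2 ratios to the wild type and the vertical axis is the set1∆ set5∆ log2 ratio to the wild type, both on the log2(FPKM + 1) scale, with 1 value per strain. The solid line marks equality and the dashed lines 2-fold departures. The 24 genes below the lower dashed line, in orange, have sums above 0, while FIT2 and FIT3, in blue, lie above the upper line with sums below 0.

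Genes of the response to misfolded protein and to membrane stress led the low extreme. HSP30, a stress protein of the plasma membrane that restrains the proton pump, stood at 11.4 FPKM in set1∆ set5∆, 11.2 in set1∆, 93.5 in set5∆ and 17.9 in the wild type. The sum of the single deletions was 59.9 FPKM, so the double deletion fell short of it 4.91-fold, an interaction value of -2.30. HSP30 was thus high in set5∆ alone of the 4 strains, and near the set1∆ level when both genes were absent. In RNA of whole cultures, fewer cells that express a gene and less of its RNA per cell cannot be told apart.

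HSP42, the small heat shock protein that collects misfolded protein in cytosolic deposits, was also high in set5∆ alone, with the double deletion level with the wild type. It stood at 29.0 FPKM in set1∆ set5∆, 26.7 in set1∆, 153 in set5∆ and 29.0 in the wild type, against a sum of 142 FPKM (interaction value -2.25). BTN2, a sorting factor that gathers misfolded protein together with Hsp42, stood at 17.2 FPKM in set1∆ set5∆, 19.01 in set1∆, 98.4 in set5∆ and 29.3 in the wild type (-1.85). In both genes the set5∆ value stood apart from the other 3 strains, and set1∆ set5∆ lay within 1.2-fold of set1∆. CUR1, the paralog of BTN2, missed the 2-fold mark at -0.89, with 35.2 FPKM in set1∆ set5∆, 36.0 in set1∆, 68.9 in set5∆ and 37.4 in the wild type.

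The general chaperones shifted the same way by less. HSP104, the disaggregase, stood at 79.3 FPKM in set1∆ set5∆, 87.7 in set1∆, 119 in set5∆ and 71.8 in the wild type, an interaction value of -0.86. HSP82, an Hsp90, had -0.77 and SIS1, a J-protein partner of Hsp70, had -0.70. Of 31 chaperone and sequestration genes, 26 were below 0 and 5 above, with a list median of -0.28 beside -0.0014 over all features. Of all 6541 features, 3284 were below 0 and 3257 above. At least 1.5-fold below the sum were 7 of the 31, beside 203 of all 6541 features. Of these 7, 2 were at least 2-fold below, HSP42 and BTN2, as were 1.22% of all features. The median log2 ratio for loss of SET5 over this list was 0.23 in set5∆ against the wild type and -0.03 in set1∆ set5∆ against set1∆. In a wider list of 49 genes that yeast induces under many stresses, 41 were below 0 and 8 above (median -0.20), and 7 were at least 2-fold below, as were 1.22% of all features: HSP30, HSP42, CMK2, SPI1, YRO2, PNC1 and STF2. Both medians kept their sign under every scaling and filter tried.

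Calcium signalling genes were represented by CMK2, a calmodulin-dependent protein kinase, at 32.7 FPKM in set1∆ set5∆, 31.1 in set1∆, 181 in set5∆ and 35.7 in the wild type. The sum was 158 FPKM and the interaction value -2.24. RCN2, named as a regulator of the phosphatase calcineurin, was at 47.5 FPKM in set1∆ set5∆, 48.3 in set1∆, 110 in set5∆ and 48.2 in the wild type (-1.19). For RCN2 the double deletion, set1∆ and the wild type were nearly level, and only set5∆ was high among the 4. RCR1, an endoplasmic reticulum protein that limits chitin deposition, had -1.44. These were the 3 of 24 calcium and calcineurin genes at least 2-fold below the sum, as 1.22% of all features were. At 1.5-fold, 5 of the 24 were below and 0 above, HOR7 (-0.96) and YPS1 (-0.66) being the other 2. Of all 6541 features, 203 were that far below and 136 that far above. Values above 0 were found in 10 of the 24, beside 49.8% of all features.

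Of 23 genes of plasma membrane stress proteins and polyamine export, 15 were below 0 and 8 above (49.8% of all features were above). Their median was -0.13, or -0.06 after quantile normalization, and 3 were at least 2-fold below (1.22% of all features were), HSP30, TPO2 and YRO2. TPO2, a polyamine exporter, stood at 34.4 FPKM in set1∆ set5∆, 34.7 in set1∆, 69.5 in set5∆ and 22.7 in the wild type (-1.59), and its near-copy TPO3 had -0.82; 58.7% and 59.2% of the 50-base windows of these genes occur once in the genome, so reads can move between them. PIC2, a mitochondrial carrier of copper and phosphate, stood at 26.7 FPKM in set1∆ set5∆, 27.4 in set1∆, 87.9 in set5∆ and 28.9 in the wild type (-1.61). Again set5∆ was the high strain and the other 3 were close together.

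Single genes of cell cycle control, protein breakdown and NAD salvage followed. CIP1, an inhibitor of the G1 cyclin-dependent kinase that is induced by stress, stood at 21.2 FPKM in set1∆ set5∆, 20.9 in set1∆, 62.5 in set5∆ and 20.9 in the wild type (-1.52). ROQ1, a stress-induced protein that redirects the ubiquitin ligase Ubr1, stood at 17.8 FPKM in set1∆ set5∆, 17.2 in set1∆, 98.9 in set5∆ and 36.8 in the wild type (-1.36). ROQ1 differed from CIP1 in that both strains without SET1 also lay below the wild type. The nicotinamidase PNC1, the first enzyme of NAD salvage, was at 236 FPKM in set1∆ set5∆, 247 in set1∆, 484 in set5∆ and 243 in the wild type (-1.05). The list of 15 genes of NAD synthesis and salvage had a median of 0.01, with 9 above 0 (49.8% of all features were).

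The glycolytic isozymes TDH1 and ENO1 were also highest in set5∆. TDH1, a glyceraldehyde-3-phosphate dehydrogenase, stood at 182 FPKM in set1∆ set5∆, 203 in set1∆, 398 in set5∆ and 184 in the wild type (-1.27). ENO1, an enolase, stood at 460 FPKM in set1∆ set5∆, 512 in set1∆, 1197 in set5∆ and 660 in the wild type (-1.01). Both share sequence with close paralogs, and the list of 20 glycolytic and fermentation genes had a median of only -0.05, so the departure was confined within that list to these 2 at the 2-fold mark. The other low genes were DIA1 (-2.13), a gene of invasive growth, with the overlapping YMR316C-A (-1.72), YOL014W (-1.88), YLR297W (-1.34), TDA6 (-1.29), RTC3 (-1.21), the cell wall protein gene SPI1 (-1.11) and the zinc-finger gene STP4 (-1.09). DIA1 and YMR316C-A overlap, and reads of one strand cannot be told from those of the other in these libraries, so they count as 1 signal at most.

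**Figure D2:**
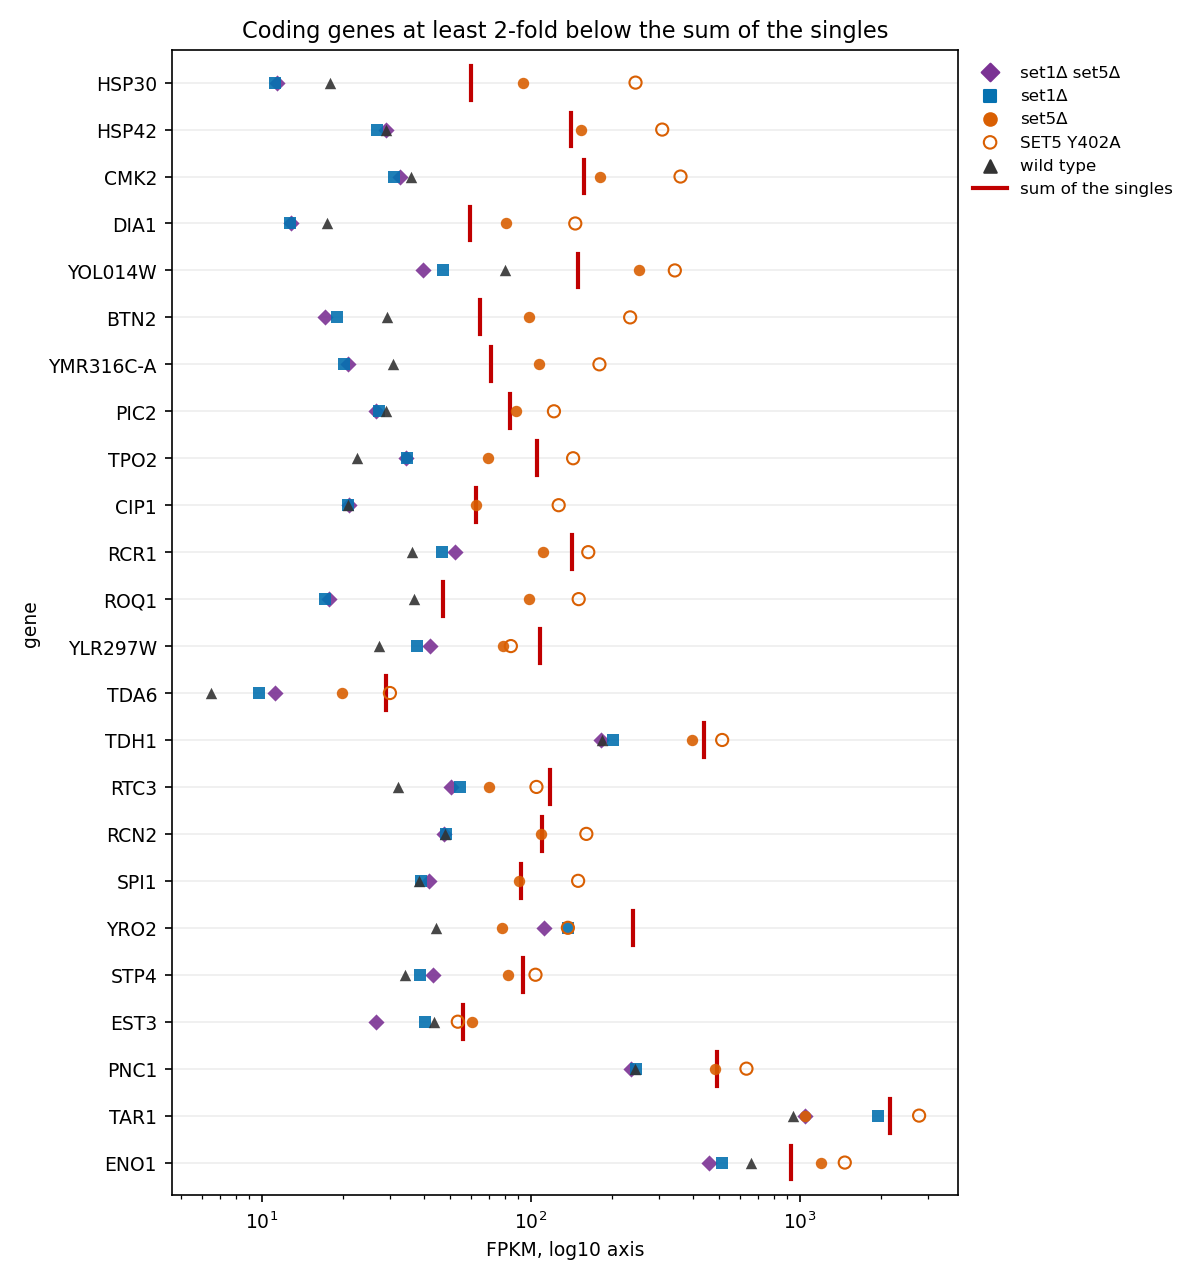
FPKM on a log10 axis for the 24 coding genes at least 2-fold below the sum, ordered by interaction value, with 1 value per strain and the sum of the single deletions as a vertical bar. For HSP30 the bar is at 59.9 FPKM while the double deletion is at 11.4; in 22 of the 24 genes set5∆, the filled circle, is the highest of the 4 strains of the interaction, and the open circle of SET5 Y402A lies to its right in 23.

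The same 24 genes can be read as a difference in what loss of SET5 did with and without SET1. With SET1 present, set5∆ against the wild type gave a median log2 ratio of 1.49 over the 24, from 0.15 to 2.36. Without SET1, set1∆ set5∆ against set1∆ gave a median of 0.0011, from -0.90 to 0.19. These ranges describe genes chosen for that difference and are no evidence for it. In 21 of the 24 the double deletion was within 1.2-fold of set1∆, and in 9 it was within 1.2-fold of the wild type. Over all 5191 coding genes its median log2 ratio was -0.0008 to set1∆ and -0.015 to the wild type. How many of the 5191 lay that close was not counted, so neither count is shown to be particular to the 24. For loss of SET1, set1∆ against the wild type gave a median of 0.0011 over the 24, from -1.05 to 1.61. In the same genes set1∆ set5∆ against set5∆ gave -1.17, from -2.93 to 0.51.

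SET5 Y402A, a column that the interaction value does not use, was higher than the wild type in all 24 genes and higher than set5∆ in 23. Its log2 ratio to the wild type had a median of 2.02 over the 24, from 0.29 to 3.70, beside -0.01 over all 5191 coding genes. HSP30 stood at 245 FPKM in SET5 Y402A, HSP42 at 308, CMK2 at 360, BTN2 at 234 and TPO2 at 144. With this strain in place of set5∆, 23 of the 24 stayed at least 2-fold below the sum, EST3 being the exception, and the count of coding genes below the sum was 63 (1.21%) in place of 24. None of the 5 strains carries the substitution without SET1, so the double mutant in that calculation is still set1∆ set5∆. The calculation thus keeps the set1∆ set5∆, set1∆ and wild-type columns by which the 24 genes were chosen. The ratios of SET5 Y402A to the wild type share the wild-type column with that choice. Neither result is therefore independent of how the 24 were chosen.

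Not every low value came from a high set5∆. By a rule that asks for 1 strain at least 2-fold from the median of the other 3 while these span less than 2-fold, set5∆ stood alone as high in 16 of the 26 coding genes, set1∆ alone as low in 1 (FIT3), the wild type alone as low in 1 (YRO2), and no single strain in 8. YRO2, a plasma membrane protein related to Hsp30, stood at 112 FPKM in set1∆ set5∆, 137 in set1∆, 78.2 in set5∆ and 44.3 in the wild type (-1.10), against a sum of 241. YRO2 was higher in every mutant than in the wild type, and the double deletion lay between the singles. TAR1, which lies inside the ribosomal DNA repeat and has no unique 50-base window, stood at 1048 FPKM in set1∆ set5∆, 1949 in set1∆, 1042 in set5∆ and 940 in the wild type (-1.04).

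EST3, a subunit of telomerase, had opposite ratios for loss of SET5 in the 2 backgrounds. It stood at 26.6 FPKM in set1∆ set5∆, 40.4 in set1∆, 60.6 in set5∆ and 43.7 in the wild type (-1.05). Loss of SET5 thus went with a higher value where SET1 was present and a lower one where it was absent, by a log2 ratio of 0.46 and -0.59. Of the coding genes, 11 had ratios of at least 1.2-fold in this pattern, among them EST3, YRO2, the cell wall stress sensor WSC4 and the mitochondrial assembly factor PET117. The reverse pattern was found in 7, among them the iron reductase gene FRE4 and the subtelomeric genes YPR202W, COS1 and YER189W, which have at most 28.9% unique windows.

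Iron genes filled 7 of the 15 highest places. The siderophore and the reductive iron lists hold 16 and 20 of the 5191 coding genes. FIT3, a cell wall mannoprotein that retains iron bound to siderophores, stood at 1620 FPKM in set1∆ set5∆, 505 in set1∆, 1411 in set5∆ and 1169 in the wild type. The sum of the singles was 609 FPKM, and the double deletion exceeded it 2.66-fold (interaction value 1.41). FIT2, its neighbour and relative, stood at 2266 FPKM in set1∆ set5∆, 872 in set1∆, 1700 in set5∆ and 1368 in the wild type, against a sum of 1083 (1.06). Both were lowest in set1∆ and highest in the strain without both genes.

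Another mannoprotein, FIT1, stood at 58.0 FPKM in set1∆ set5∆, 22.7 in set1∆, 19.4 in set5∆ and 13.4 in the wild type, against a sum of 32.6 (0.81). FIT1 was not low in set1∆, so its departure came with a different order of strains. HMX1, the heme oxygenase that frees iron from heme, was also highest in the double deletion, with set1∆ next. It stood at 43.4 FPKM in set1∆ set5∆, 26.3 in set1∆, 15.9 in set5∆ and 17.2 in the wild type (0.81).

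The siderophore transporters lay above the sum as well. ARN2 stood at 199 FPKM in set1∆ set5∆, 96.9 in set1∆, 182 in set5∆ and 145 in the wild type (0.70), the order of FIT3 and FIT2. SIT1 stood at 315 FPKM in set1∆ set5∆, 222 in set1∆, 172 in set5∆ and 183 in the wild type (0.59), the order of HMX1. ARN1 had 0.45 and ENB1 0.21. The activators of the iron regulon, AFT1 and AFT2, had 0.20 and 0.06, AFT1 standing at 49.3 FPKM in set1∆ set5∆, 44.5 in set1∆, 37.3 in set5∆ and 38.8 in the wild type.

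All 16 genes of siderophore capture and transport were above 0, from 0.06 to 1.41 with a median of 0.46, and 7 were at least 1.5-fold above the sum. Of all 5191 coding genes, 25 were that far above. Over this list, loss of SET5 gave a median log2 ratio of -0.00 in set5∆ against the wild type and 0.49 in set1∆ set5∆ against set1∆, and loss of SET1 alone gave -0.22. The median stayed between 0.42 and 0.64 under every alternative. The reductive iron uptake and iron-sparing list of 23 genes had 15 above 0 (49.8% of all features were) and a median of 0.13. Its high member was TIS11, which promotes decay of the messengers of iron-using proteins, at 104 FPKM in set1∆ set5∆, 65.6 in set1∆, 63.2 in set5∆ and 73.1 in the wild type (0.86). FET3 and FTR1, the oxidase and permease of high-affinity uptake, had 0.30 and 0.24, and ATX1, a copper chaperone, had -0.60. SET5 Y402A did not share the set5∆ level of FIT2, standing at 1369 FPKM, level with the wild type.

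**Figure D3:**
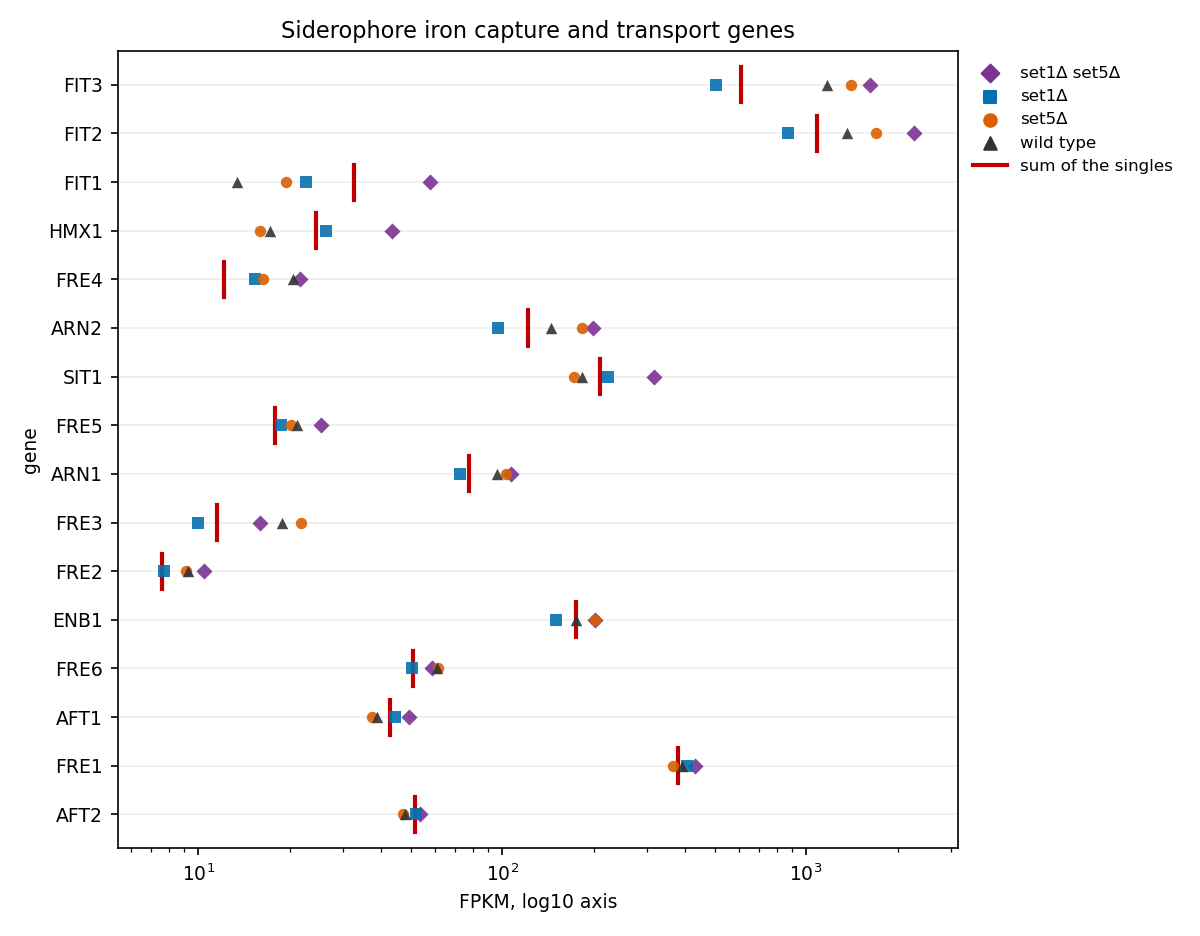
FPKM on a log10 axis for the 16 siderophore genes, ordered by interaction value, with 1 value per strain and the sum of the single deletions as a vertical bar. The diamond of set1∆ set5∆ lies right of the bar for each gene, at 1620 FPKM against 609 for FIT3 and at 53.6 against 51.5 for AFT2.

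A further group was low in set5∆ and higher in both strains without SET1. YGR079W, a gene of unknown function, stood at 173 FPKM in set1∆ set5∆, 145 in set1∆, 40.3 in set5∆ and 64.0 in the wild type (0.91). CLB6, an S-phase cyclin, stood at 22.1 FPKM in set1∆ set5∆, 18.7 in set1∆, 7.68 in set5∆ and 12.7 in the wild type (0.89). VHR2, a putative transcription factor, stood at 116 FPKM in set1∆ set5∆, 101 in set1∆, 51.6 in set5∆ and 80.2 in the wild type (0.83). None reached 2-fold, and in each the set5∆ value was the lowest of the 4. MUP1, the high-affinity methionine permease, had the same order at 158 FPKM in set1∆ set5∆, 151 in set1∆, 61.9 in set5∆ and 93.4 in the wild type (0.64), as did YGR035C (0.63). In SET5 Y402A these genes were below the wild type too, YGR079W at 31.0 FPKM, CLB6 at 7.04, VHR2 at 41.3, MUP1 at 66.4 and YGR035C at 78.5.

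SIR2, the histone deacetylase of silent chromatin, was lowest in set5∆ but with another order among the rest. It stood at 18.9 FPKM in set1∆ set5∆, 22.4 in set1∆, 16.2 in set5∆ and 31.4 in the wild type, against a sum of 11.4 (0.68). All 3 deletion strains were below the wild type, and the double deletion lay between the singles. The list of 25 silencing factors compared had a median of 0.06, with 16 above 0 (49.8% of all features were).

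Genes that differed between the double deletion and the wild type were also set against the sum. Of the 5191 coding genes, 53 (1.02%) were at least 2-fold higher in set1∆ set5∆ than in the wild type and 11 (0.212%) at least 2-fold lower, SET1 and SET5 among the lower. Of the 62 without these 2, 32 lay within 1.2-fold of the sum and 53 within 1.5-fold, with interaction values from -1.36 to 0.91 and a median of 0.05. Of all 5191 coding genes, 84.7% lay within 1.2-fold and 98.0% within 1.5-fold. The comparison with the wild type shares columns with the interaction, so the 62 were not chosen independently of their distance from the sum. These counts are given as a description, and no difference from coding genes in general is drawn from them. COS12, a subtelomeric gene of the COS family with unique sequence, stood at 24.7 FPKM in set1∆ set5∆, 7.53 in set1∆, 7.06 in set5∆ and 1.86 in the wild type, against a sum of 23.1 (0.09). Each single deletion was severalfold above the wild type, and the double deletion was where their log2 ratios add up to.

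CDA1, which deacetylates chitin for the spore wall, reached the sum by another way, at 13.9 FPKM in set1∆ set5∆, 13.8 in set1∆, 1.09 in set5∆ and 1.29 in the wild type (0.14). There the double deletion matched set1∆, and set5∆ was level with the wild type. Much the same held for MIG2, a repressor of glucose-repressed genes (0.13), the replication licensing gene CDC6 (0.21) and, in the lower direction, for the histone gene HTB2 at 1109 FPKM in set1∆ set5∆, 1224 in set1∆, 2839 in set5∆ and 2769 in the wild type (-0.18). CLN3, a G1 cyclin, stood at 80.0 FPKM in set1∆ set5∆, 63.6 in set1∆, 40.7 in set5∆ and 32.5 in the wild type (0.01), so each single deletion was above the wild type. HUG1, a small inhibitor of ribonucleotide reductase under the length limit, went beyond its sum, at 2554 FPKM in set1∆ set5∆, 1573 in set1∆, 279 in set5∆ and 250 in the wild type (0.54).

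Large groups of abundant genes shifted little but in 1 direction. Of 136 genes of cytosolic ribosomal proteins, 131 were below 0 with a median of -0.18, which became 0.01 when the 4 columns were quantile normalized, so its direction depends on the scaling. Of 103 ribosome biogenesis genes, 91 were above 0 (median 0.13) and of 16 RNA polymerase I genes 14 (0.14). Over all features, 49.8% were above 0. In the respiratory chain and ATP synthase, 36 of 40 genes were below 0 (median -0.22), its lowest member being HAP4, the activator subunit for respiratory genes, at -0.90. Of 35 proteasome genes, 34 were below 0 (-0.14), as were all 11 histone genes (-0.21), and 9 of 10 ribonucleotide reductase genes were above (0.21). Only 7 of the 11 histone genes are at least 95% unique in sequence (median -0.16), so the 11 are not all separate measurements. All of these medians are under 1.2-fold, and with 1 value per strain no spread between cultures can be set beside them. The 8 genes of COMPASS itself, the Set1 complex, had a median of -0.0028, from -0.52 to 0.16. The 13 genes of histone methyltransferases and demethylases had a median of 0.05. SET1 belongs to the first list and SET5 to the second, and their own values follow from the deletions.

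**Figure D4:**
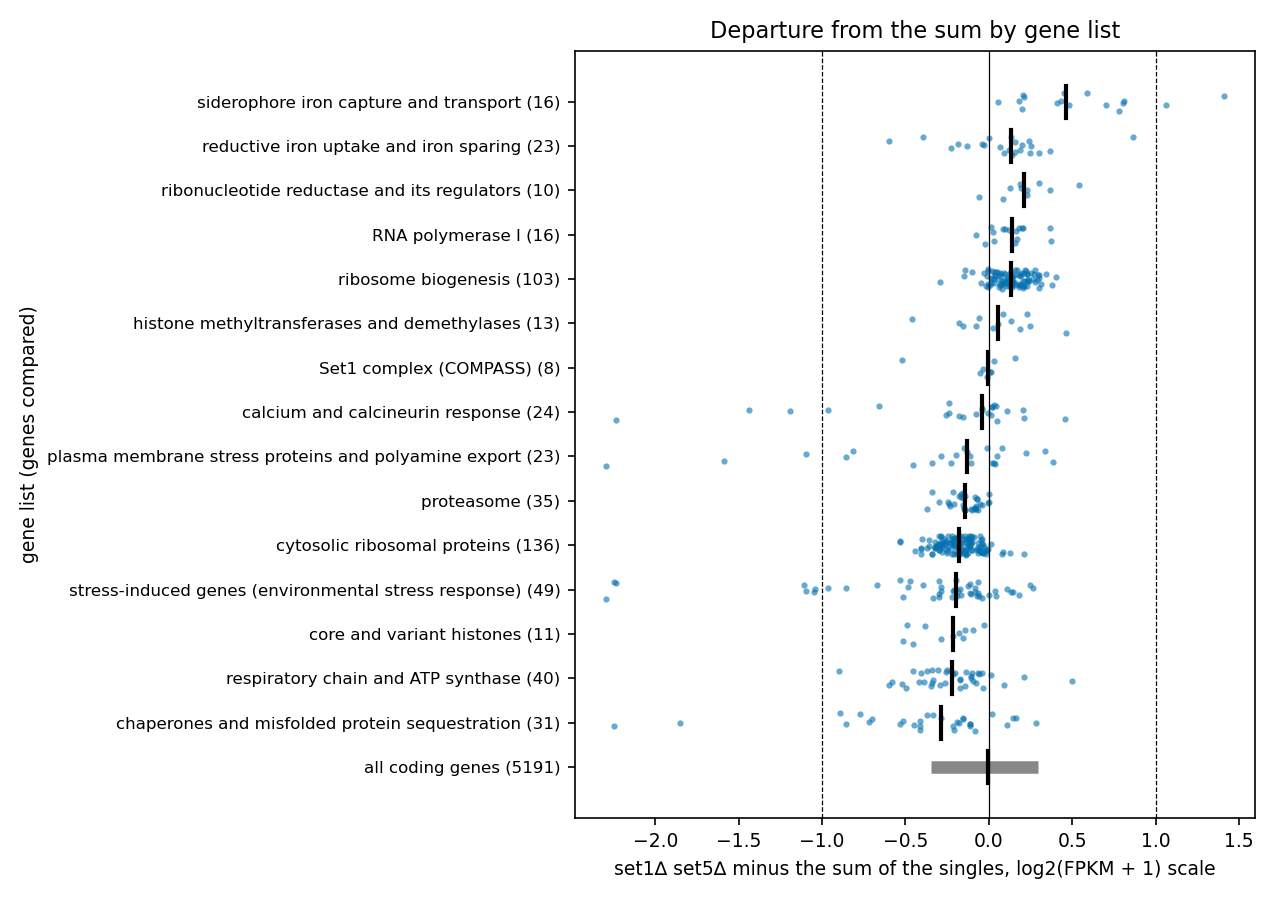
Interaction values on the log2(FPKM + 1) scale for 15 gene lists, 1 point per gene, with vertical jitter and a bar at the median. The grey bar in the bottom row spans the 5th to 95th percentile of the 5191 coding genes, -0.35 to 0.29, and dashed lines mark 2-fold. All 16 siderophore genes lie right of 0, and the chaperone and stress lists have long tails to the left.

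The retrotransposon and Y' element genes lay above the sum. All 49 Ty retrotransposon reading frames compared had values above 0, with a median of 0.30, and so had all 8 YRF1 helicase genes of the subtelomeric Y' elements (0.39). Over all features, 49.8% were above 0. The median Ty level was 78.3 FPKM in set1∆ set5∆, 66.3 in set1∆, 64.1 in set5∆ and 63.1 in the wild type. None of these genes has sequence that is unique over 95% of its length, so members of each family are not separate measurements. The 5 outermost genes at each chromosome end had a median of 0.21 over 143 genes, but 0.11 over the 39 with unique sequence, and the median at positions 6 to 10 was 0.04. Of 295 subtelomeric genes in all, 6 were at least 2-fold above the sum (0.78% of all features were) and 4 at least 2-fold below (1.22% of all features), with a median of 0.12 that was 0.03 over the 151 with unique sequence. The 4 include DIA1 and the overlapping YMR316C-A. Among the coding genes with unique sequence, 0 of 29 at positions 1 to 5 were 2-fold above and 0 below. At positions 6 to 10, 0 of 94 were above and 2 below.

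Some departing genes adjoin on the chromosome. FIT2 and FIT3 are neighbours, as are TDA6 with CUR1 and TPO3, and GPD1, of glycerol synthesis, with GPM2, while CMK2 and YOL014W have 1 coding gene between them. GPD1 had -0.68 and GPM2 -0.98. SNR48, a small nucleolar RNA listed above 0 in all 4 strains, stood at 218 FPKM in set1∆ set5∆, 587 in set1∆, 709 in set5∆ and 117 in the wild type (-4.02). Over the 14 features of ribosomal RNA the median was -1.27, and 8 were at least 2-fold below (1.22% of all features). These 8 are repeated copies that hold only 4 different sets of values, with RDN5-1 at 552 FPKM in set1∆ set5∆, 825 in set1∆, 335 in set5∆ and 180 in the wild type. How much of these short or repeated RNAs each library kept was not tested.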

How the data were processed

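The deposited table holds 1 column per strain. The unit is not in its header. The deposited values were read as FPKM made by the authors, since they carry decimals, since column sums (2056298 to 2426410) exceed those of CPM or TPM, and since Cufflinks 2.0.2 and Cuffdiff are listed in the submitters' processing notes, beside R 2.15.1, TopHat2 2.0.5 and FastQC, without roles. The sources used here do not say how the 2 replicates of a strain were combined, how strains were scaled, or which genome build and annotation were used. Per the labels' protocols, libraries were made with the TruSeq RNA v2 kit, which marks no strand. Depth is unknown and the table holds no spread between replicates, so no interval or p-value is given. No columns were left unused.

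The sum of the single deletions was formed on the log2(FPKM + 1) scale, which understates differences of scarce transcripts, and is printed as FPKM. The calculation was run on simulated strains with planted departures of the same additive form. That run checks the arithmetic only and does not show how reliable the 2-fold departures are. Names, lengths, gene order, overlaps and the share of 50-base windows that occur once in the genome come from RefSeq for assembly R64, and the build behind the table is unknown, so no coordinates and no sequences are given; a planned search of promoters was not made for that reason. Locus tags matched 5934 features and symbols 82, leaving 647 unmatched. Python 3.11.15, numpy 2.4.6, pandas 2.3.3 and matplotlib 3.10.9 were used.

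The comparison, its 48 gene lists and the thresholds were chosen with earlier results of these data known. Named genes were SET1 and SET5, the 15 highest and 15 lowest interaction values among the coding genes compared, in each list at most 5 genes with the largest departure among those of at least 10 FPKM in the highest of the 4 strains, and up to 5 per class of strain that stood apart; any further gene named was chosen after its values were seen. Subtelomeric genes were the outermost 10 at each chromosome end.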

Additional observations from a re-analysis of the deposited data

How the results depend on the processing

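No paired analysis was possible because the columns carry no replicates, and for the same reason no replicate could be left out. Of the 26 coding departures, 26 stayed past 2-fold with a pseudocount of 0.1, 24 with 5 (not EST3 and TDA6), 25 with columns centred on their medians (not ENO1), 23 after quantile normalization (not PNC1, ENO1 and TAR1), 20 with the sum formed on the linear FPKM scale (not YRO2, STP4, RTC3, TAR1, FIT2 and TDA6), and none of them changed sign. Restricted to coding genes of at least 95% unique sequence that overlap no other gene, an alternative chosen after seeing the data, 18 of the 24 low genes and both high genes were left. The 51 features above the sum became 32 with a pseudocount of 5, 27 where the mean had to reach 10 FPKM, 32 with levels above 0 in all 4 strains, 2 among the coding genes, 136 at 1.5-fold and 27 at 3-fold. The 80 below became 24 among the coding genes, 203 at 1.5-fold, 39 at 3-fold and 144 with SET5 Y402A in place of set5∆. The 2 coding genes above became 4 on the linear scale, 9 with SET5 Y402A, 25 at 1.5-fold and 0 at 3-fold, and the 24 below became 63 with SET5 Y402A, 81 at 1.5-fold and 9 at 3-fold. When the other 3 strains had to lie within 1.5-fold, 24 features and 1 coding gene had a strain other than set5∆ apart, and 13 coding genes had none. With SET5 Y402A the list medians were -0.43 for stress-induced genes, -0.44 for chaperones, 0.64 for siderophore genes, 0.27 for reductive iron genes and 0.0047, turned in sign, for M/G1 genes. The median of cytosolic ribosomal proteins turned to 0.0144 after quantile normalization, and that of gluconeogenesis genes to -0.0031 where the mean had to reach 10 FPKM. Seripauperins turned from -0.15 to 0.1087 on the linear scale, 0.1107 with SET5 Y402A, 0.0149 without a filter and 0.0285 where the mean had to reach 10 FPKM. The causes were not tested.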

Other observations

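Smaller departures were spread over metabolism. Of 16 genes of arginine metabolism, 11 were above 0, beside 49.8% of all features, with a median of 0.16. The highest was the ARG5,6 gene at 25.6 FPKM in set1∆ set5∆, 23.1 in set1∆, 13.4 in set5∆ and 15.9 in the wild type (0.37). SHM2, a serine hydroxymethyltransferase of one-carbon supply listed with purine synthesis, stood at 296 FPKM in set1∆ set5∆, 260 in set1∆, 157 in set5∆ and 187 in the wild type (0.44). ZRT1, the high-affinity zinc transporter, stood at 136 FPKM in set1∆ set5∆, 114 in set1∆, 67.2 in set5∆ and 80.2 in the wild type (0.50). In all 3 genes the strains without SET1 were above the wild type and set5∆ below it. CYC7, the hypoxic form of cytochrome c, had that order too, at 19.3 FPKM in set1∆ set5∆, 19.7 in set1∆, 5.61 in set5∆ and 8.51 in the wild type (0.50).

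Among the phosphate genes, PHO5, the secreted acid phosphatase, stood at 156 FPKM in set1∆ set5∆, 242 in set1∆, 114 in set5∆ and 130 in the wild type (-0.45), and the list of 18 had a median of -0.01. PHO5 was high in set1∆ and less so in the double deletion. Of the 48 lists, 21 had medians between -0.1 and 0.1, 15 were above that band and 12 below, and 37 had no member 2-fold away from the sum.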
